A study of Mus musculus with 7 samples.

Results

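Kinesins are the motor proteins that use ATP to work along microtubules. On these arrays most genes listed as kinesins of cell division changed otherwise than those listed for transport, with exceptions. Kif24, listed with division, had a log2 change of -0.41. Kif2a, related to Kif2c but listed outside division, had one of 0.01 by its brightest probe. With EXO-Post Palm, 4 kinesins of cell division rose, namely Kif20a, Kif23, Kif18b and Kif20b, by 4.44- to 6.52-fold. Of these, Kif23 and Kif18b were kept for testing only through the EXO-Post Palm arrays, on which they were high. A further 6 kinesins of division did not pass the test of all probes. They were higher on every EXO-Post Palm array than on any EXO-Post BSA array, as were 5.22% of all genes tested. Of the 6, Kif15 and Kif18a were likewise kept only through the EXO-Post Palm arrays. No kinesin of vesicle or organelle transport passed the test in either direction, and of all genes 0.561% did so in 1 direction or the other. The members are the non-control probes whose gene name begins with Kif or Kifc followed by a number. The array carries 61 such probes for 42 gene names, and 41 probes for 33 names were kept because the scanner software called them well above background on at least 3 arrays of 1 group. By the same filter, 17477 gene names were kept in all. The 33 comprised 7 of the 8 kinesins taken as known mitotic motors (Kif11, Kif15, Kif20a, Kif22, Kif23, Kif4 and Kifc1, with Kif2c not kept) and 26 others.

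A kinesin couples ATP hydrolysis in its motor domain to steps along a microtubule or to the removal of tubulin from its ends. In dividing cells, mitotic kinesins push the spindle poles apart, move chromosomes, trim microtubule ends and build the midzone on which the cleavage furrow depends. Transport kinesins carry vesicles, mitochondria and mRNA toward the cell periphery, in muscle as in neurons, and they continue to do so after cells have left the cell cycle. Genes of the first kind are transcribed mainly in the late cell cycle and are low in resting cells.

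The arrays measured RNA of C2C12, a line of mouse myoblasts that can differentiate and fuse into multinucleated myotubes. The recipient cells had been incubated for 24 h with exosomes, small vesicles that cells release, collected from other C2C12 cultures that had been differentiated and then exposed to palmitate at 0.5 mmol/l (EXO-Post Palm, n = 3 arrays) or to BSA, the carrier protein, without palmitate (EXO-Post BSA, n = 4 arrays). Both groups therefore received C2C12 exosomes, and no array came from cells without exosomes. From each culture 100 ng of RNA, labelled with Cy3 alone, went onto an Agilent mouse array. The arrays are labelled as biological replicates, without a statement of whether they were separate cultures. The cell line field of the labels counts up from C2C12 by 1 with each sample, whereas the source field names C2C12 throughout.

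The labels give the cell type as myoblast and the study's text speaks of recipient myotubes. All 11 myotube markers examined, such as Ckm, Acta1, Myh3 and Myog, were well above background on each of the 7 arrays, as were Mki67, Top2a and Pcna, markers of dividing cells. Of 7 myoblast markers, Pax7, Myod1, Cdh15, Heyl and Des were also well above background on 7 arrays, while Msc was on 1 and Myf5 on none. Values below are log2 intensities minus the 75th percentile of the array, so that 0 is the 75th percentile, and a change is EXO-Post Palm minus EXO-Post BSA on that scale. Per array, 48.5 to 70.3% of 39429 probes were well above background, and the values of 2 arrays correlated at 0.946 to 0.985. There were 4 slides. Both groups were present on slide 1 (replicate 1 of each, with control replicate 2) and on slide 3 (control replicate 4 with treated replicate 3), and the remaining arrays had a slide to themselves. Precision is limited by how few arrays there are. In RNA of whole cultures, fewer cells of a type and less RNA per cell cannot be told apart.

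Promoters are shown because most kinesins of division were higher together. RefSeq promoters (GRCm38.p6, 250 bases before the transcription start and 50 from it) were matched by symbol for 32 of the 42 gene names. They were searched on both strands for the letters TTTGAA, the cell cycle genes homology region (CHR) that the DREAM and MuvB complexes bind in late cell cycle genes, and for CCAAT, the box that NF-Y binds and that often lies upstream of a CHR. The windows below run from 75 bases before the start to 25 from it, 5′ to 3′ on the strand of the gene, with every CHR and CCAAT box on either strand in capitals. The first 8 belong to kinesins of division that hold a CHR near the start, and Kif18a, another kinesin of division, and Kif3a, a transport kinesin, are shown for contrast.
Kif11 (chr19:37376307-37376406, plus strand): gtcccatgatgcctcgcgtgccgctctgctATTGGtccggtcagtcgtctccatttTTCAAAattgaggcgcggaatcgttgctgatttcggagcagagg
Kif15 (chr9:122951006-122951105, plus strand): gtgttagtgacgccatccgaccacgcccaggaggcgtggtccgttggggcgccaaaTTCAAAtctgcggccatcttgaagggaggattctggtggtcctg
Kif22 (chr7:127042396-127042495, minus strand): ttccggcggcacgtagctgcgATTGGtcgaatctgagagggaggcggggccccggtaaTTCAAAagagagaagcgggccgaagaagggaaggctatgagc
Kif23 (chr9:61946775-61946874, minus strand): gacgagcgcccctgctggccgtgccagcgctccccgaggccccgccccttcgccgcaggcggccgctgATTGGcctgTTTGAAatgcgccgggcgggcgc
Kif4 (chrX:100625990-100626089, plus strand): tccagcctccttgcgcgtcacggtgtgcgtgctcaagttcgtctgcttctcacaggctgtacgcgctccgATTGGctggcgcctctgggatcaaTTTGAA
Kifc1 (chr17:33890609-33890708, minus strand): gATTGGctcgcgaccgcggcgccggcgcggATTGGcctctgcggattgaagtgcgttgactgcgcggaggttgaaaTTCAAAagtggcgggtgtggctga
Kif18b (chr11:102925100-102925199, minus strand): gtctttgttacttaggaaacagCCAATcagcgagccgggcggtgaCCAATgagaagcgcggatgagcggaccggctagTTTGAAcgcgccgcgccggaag
Kif20b (chr19:34922283-34922382, plus strand): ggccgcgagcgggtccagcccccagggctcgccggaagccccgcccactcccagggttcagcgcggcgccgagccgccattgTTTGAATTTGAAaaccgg
Kif18a (chr2:109280663-109280762, plus strand): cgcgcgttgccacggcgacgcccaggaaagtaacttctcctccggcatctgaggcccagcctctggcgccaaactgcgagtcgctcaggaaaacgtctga
Kif3a (chr11:53567294-53567393, plus strand): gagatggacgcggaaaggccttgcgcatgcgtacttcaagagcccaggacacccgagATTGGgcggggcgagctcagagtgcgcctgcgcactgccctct

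A CHR lay in the promoters of all 7 mitotic kinesins found in the table, the 8 without Kif20a, and in 17.9% of all 32851 promoters. In 6 of the 7 it began within 30 bases of the start, as it did in 3.14% of all promoters, a window chosen after the positions were seen. Its first base was at position -19 in Kif11 and Kif15, -17 in Kif22, 2 in Kifc1, 3 in Kif23 and 20 in Kif4, while the CHR of Kif2c lay farther upstream, at -103. Of 6 further kinesins of division, Kif18b and Kif20b held it near the start, Kif20b with a pair of matches end to end at positions 8 and 14, and Kif14 held it at -228. Of 19 transport and remaining kinesins with a promoter in the table, 3 held a CHR, namely Kif1a, Kif26b and Kif27, and Kif26b alone held it near the start. A CCAAT box was found in 5 of the 7 mitotic kinesins, in 4 of the 6 further kinesins of division and in 6 of the 19 others, against 37.4% of all promoters. The 19 have 23 promoters, and a gene was counted if any of its promoters held a match. Counted by gene in this way, 5466 of 27025 genes held a CHR and 11096 a CCAAT box. Among the other letters searched, TTCGAA, a variant of the CHR, lay in the Kif24 promoter (1.56% of all promoters), and TTGGCGC, a form of the E2F site, lay in those of Kif15 and Kif18a (2.45%). None of the printed matches of these motifs overlap. TTCCCGC, the other E2F form searched, was found in no promoter of a division kinesin and in 4.6% of all promoters. A match of letters describes the sequence and is not a measured binding site. Positions depend on the start used, which among the genes printed differed from the RefSeq gene start for Kif22, Kif23, Kif18b, Kif20b and Kif3a.

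**Figure D1:**
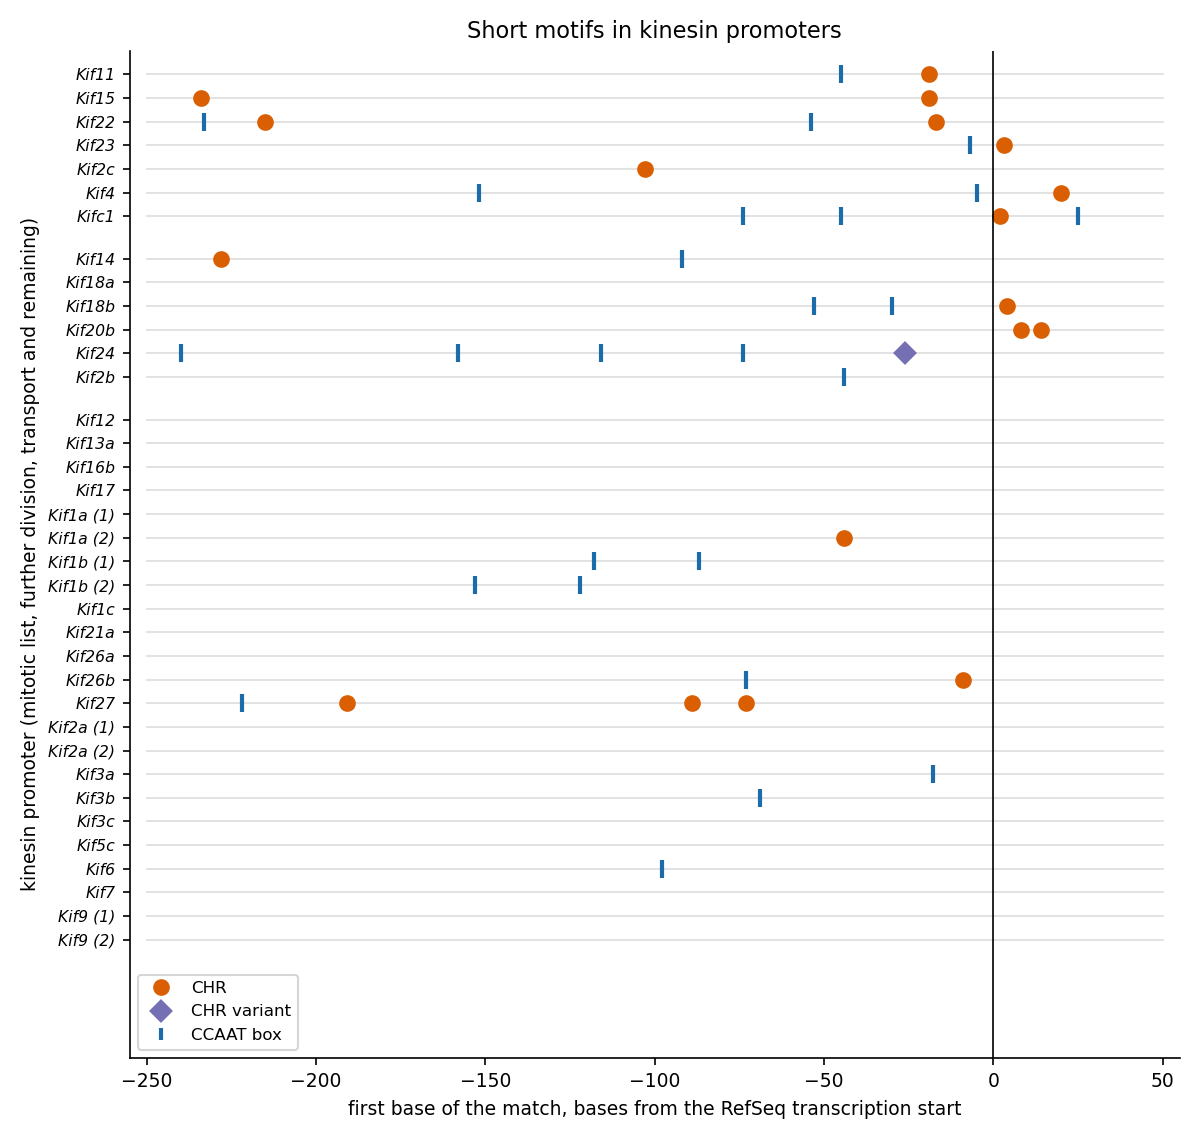
Positions of the CHR (TTTGAA), its variant (TTCGAA) and the CCAAT box in the RefSeq promoters of 32 kinesin genes. The horizontal axis gives the first base of each match in bases from the transcription start, each line is 1 promoter, and a number in brackets marks genes with more than 1. In 6 of 7 mitotic kinesins (top block) a CHR lies within 30 bases of the start, as in 1 of the 19 transport and remaining kinesins (bottom block).

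The first group of motors builds the midzone and completes cytokinesis. Kif20a (MKLP2) carries the chromosomal passenger complex to the midzone. Its log2 values were 0.12, -0.27, 0.40 and 0.11 with EXO-Post BSA and 2.06, 1.87 and 2.88 with EXO-Post Palm, in the order of the replicate numbers, as they are given below. The groups lay far apart, with the lowest EXO-Post Palm array well over the highest control, and the probe was well above background on every array. Kif20a rose by 2.18 (standard error 0.29, 95% interval 1.51 to 2.84, limma adjusted p = 0.0193), which is 4.52-fold. Within slide 1 the difference was 2.13 and within slide 3 it was 2.76.

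Kif23 (MKLP1) is the motor of centralspindlin, the complex that bundles midzone microtubules and recruits the regulators of the cleavage furrow. Its log2 values were -3.93, -3.57, -4.00 and -4.61 with EXO-Post BSA and -1.74, -2.15 and -1.74 with EXO-Post Palm. The EXO-Post Palm arrays were close to each other, and 2 of the 4 controls were not well above background. Kif23 rose by 2.15 (standard error 0.28, limma adjusted p = 0.0175), 4.44-fold, having been kept only through EXO-Post Palm. The change was smaller with normexp background (1.07, adjusted p = 0.0362) and with local background subtracted (0.98, 0.0460). Its probe lies on chromosome 9 of mm9 between 61767492 and 61767732, on the minus strand. Kif4 (KIF4A), a chromosome-bound motor that with Prc1 sets the length of midzone microtubules, had log2 values of -3.87, -3.78, -5.18 and -4.18 with EXO-Post BSA and -2.29, -3.37 and -1.44 with EXO-Post Palm. Its groups did not overlap, yet its EXO-Post Palm arrays were wide apart, and the difference of 1.89 (standard error 0.49) did not pass (limma adjusted p = 0.205).

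Motors of the spindle poles follow. Kif11 (Eg5), the tetrameric motor that pushes the poles apart, had log2 values of -4.58, -4.13, -5.68 and -4.00 with EXO-Post BSA and -2.66, -3.78 and -1.80 with EXO-Post Palm. EXO-Post Palm replicate 2 stood just over the highest control, and the difference was 1.85 (standard error 0.53, limma adjusted p = 0.259). Kif15 (Hklp2), which can keep the spindle bipolar beside Kif11, had log2 values of -4.88, -4.82, -6.03 and -5.25 with EXO-Post BSA and -3.06, -4.20 and -2.94 with EXO-Post Palm. Here too EXO-Post Palm replicate 2 was the array nearest to the controls. Its difference of 1.84 (standard error 0.40, limma adjusted p = 0.124) went past the threshold once slide was added as a block (2.01, adjusted p = 0.0353). That fit takes the group difference from slides 1 and 3 alone. EXO-Post BSA replicate 3 and EXO-Post Palm replicate 2 were each alone on a slide, so neither counts in it. With slide as a random effect the difference did not pass (1.89, 0.0542).

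Kifc1 (HSET), the minus-end motor that focuses the spindle poles, had log2 values of -3.52, -2.22, -3.12 and -2.57 with EXO-Post BSA and -1.17, -1.09 and 0.00 with EXO-Post Palm. The highest EXO-Post Palm array lay at the 75th percentile of all probes and all 3 lay over the controls. The difference was 2.10 (standard error 0.39, limma adjusted p = 0.0702). Mouse has near-identical copies of this gene, among them the loci named Kifc5b and Kifc5c, so the signal of the probe (chromosome 17 of mm9, 27063180 to 27063239) cannot be given to 1 of them. These coordinates are on the plus strand, whereas the Kifc1 promoter shown above (GRCm38.p6, 33890609 to 33890708) is on the minus strand. The change counted here for Kifc1 may therefore belong to another copy than the gene whose promoter is shown. The Kifc5c probe itself, a pseudogene in RefSeq, differed by 0.26 (adjusted p = 0.921). Kif22 (Kid), a DNA-binding motor that pushes chromosome arms toward the spindle equator, had log2 values of 0.01, -0.45, -0.35 and 0.06 with EXO-Post BSA and 1.36, 0.40 and 1.90 with EXO-Post Palm. The groups again did not overlap, although the gap between EXO-Post Palm replicate 2 and the highest control was small. The difference of 1.40 (standard error 0.35, limma adjusted p = 0.186) was the lowest of the 7.

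Kif2c (MCAK), which removes tubulin from microtubule ends and corrects faulty attachments of chromosomes, is the mitotic kinesin that the filter left out. By 1 of its 2 probes the log2 values were -5.18, -4.78, -4.04 and -5.26 with EXO-Post BSA and -2.48, -4.09 and -2.24 with EXO-Post Palm, and by the other they were -4.88, -4.89, -4.35 and -5.89 against -3.04, -4.25 and -2.50. Both probes were well above background on 2 EXO-Post Palm arrays, and replicate 2, the array that was not, lay at the level of the controls. Neither probe was tested.

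**Figure D2:**
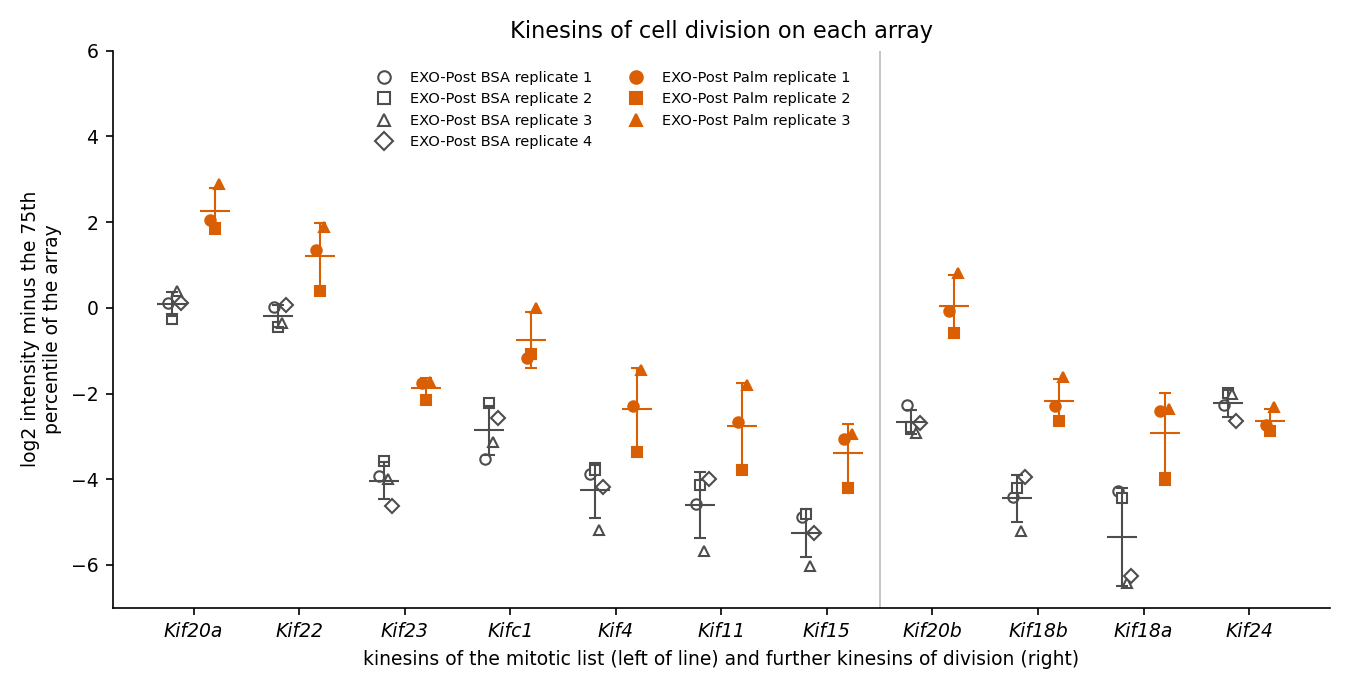
Log2 intensity minus the 75th percentile of the array for the kept kinesins of cell division, with each array as a symbol (open, EXO-Post BSA; filled, EXO-Post Palm) and the mean with SD as a bar. In all genes but Kif24 every EXO-Post Palm array lies over every EXO-Post BSA array, and heights are not comparable between genes because each is 1 probe.

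Over the 7 mitotic kinesins tested, 2 passed the threshold, both higher, against 0.486% of the 17477 gene names that passed in that direction. The groups did not overlap in all 7, in the direction of EXO-Post Palm, and neither did they in 5.22% of all genes in that direction. The unadjusted limma p was under 0.05 in all 7, as in 10.2% of all genes in either direction. Their median change was 1.89 (range 1.40 to 2.18), against -0.03 over all genes. Kif15 and Kif23 passed the filter only through EXO-Post Palm, where they were high, so these counts describe the kept genes and do not stand for the family. Of the 3 that were well above background on all 7 arrays, Kif20a, Kif22 and Kifc1, the median change was 2.10. With background modelled by normexp and quantile normalisation, the median of the 7 was 1.07, and with local background subtracted it was 0.98.

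Further motors of division, listed beside the 8, gave the largest change of any kinesin. Kif20b (MPP1, also called MPHOSPH1) acts in the last steps of cytokinesis and had log2 values of -2.26, -2.78, -2.91 and -2.68 with EXO-Post BSA and -0.07, -0.60 and 0.81 with EXO-Post Palm. No control came near the EXO-Post Palm arrays, and the probe (chromosome 19 of mm9, 35050047 to 35050106) was well above background on all of them. Kif20b rose by 2.70 (standard error 0.34, 95% interval 1.93 to 3.48, limma adjusted p = 0.0153), 6.52-fold, and by 2.45 within slide 1 and 3.49 within slide 3. Kif18b, a motor that shortens astral microtubules, had log2 values of -4.42, -4.21, -5.22 and -3.95 with EXO-Post BSA and -2.30, -2.64 and -1.60 with EXO-Post Palm. It rose by 2.27 (standard error 0.36, limma adjusted p = 0.0414), 4.81-fold, but it was kept only through EXO-Post Palm, since 2 of the 4 controls were not well above background. Its call was lost with normexp background (change 1.18, adjusted p = 0.0771), with local background subtracted (1.07, 0.0928) and with quantile normalisation of the processed signal (0.0793).

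Kif18a, likewise kept only through EXO-Post Palm, dampens the movements of chromosomes at the metaphase plate. It had log2 values of -4.28, -4.45, -6.41 and -6.25 with EXO-Post BSA and -2.40, -4.01 and -2.37 with EXO-Post Palm. The controls fell into a higher and a lower pair, and both slide 1 controls formed the higher one, which the gap to EXO-Post Palm replicate 2 barely cleared. The difference was 2.42 (standard error 0.64, limma adjusted p = 0.219). Kif24, a motor of the centriole that limits the growth of cilia, was the kinesin of this list that did not share the direction. Its log2 values were -2.26, -2.00, -2.01 and -2.65 with EXO-Post BSA and -2.73, -2.87 and -2.32 with EXO-Post Palm, and the groups overlapped (change -0.41, adjusted p = 0.624). Kif14 and Kif2b were not kept and were well above background on no array.

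The EXO-Post Palm arrays kept much the same order from gene to gene, whereas each control was the lowest of its group in some genes and the highest in others. Over the 10 division kinesins with non-overlapping groups, EXO-Post Palm replicate 3 was the highest of its group in 10 and EXO-Post Palm replicate 2 the lowest in 9, while EXO-Post BSA replicate 3 was the lowest control in 6. Taken as the median over the 7 mitotic kinesins, the difference from the mean of the controls was 1.97, 1.05 and 2.79 on the EXO-Post Palm arrays, in order, and -0.27 to 0.46 on the controls. The calls depended on single arrays. Without EXO-Post Palm replicate 1 or replicate 3 none of the 4 kinesins passed, with changes of 2.08 to 2.76 and 1.87 to 2.32 and adjusted p-values of 0.0703 to 0.125 and 0.0585 to 0.165. In these fits 7 and 4 probes passed among all tested, against 115 with every array. Without EXO-Post Palm replicate 2, Kif15 and Kif22 passed as well (adjusted p = 0.0386 and 0.0292). Without EXO-Post BSA replicate 1 Kif20a was at an adjusted p of 0.0502 and Kif18b at 0.0965, and Kif18b also failed to pass without EXO-Post BSA replicate 2 (0.0719) or 3 (0.0583). By the exact permutation test, 2-sided, p was 0.0286 for each of the 7 mitotic kinesins and for Kif18b and Kif20b, the smallest p that 4 arrays against 3 allow, and 0.0571 for Kif18a. Groups that do not overlap, which the smallest p requires, were found in 11.4% of all genes, in either direction. Kif15, Kif18a, Kif18b and Kif23 were kept only through EXO-Post Palm, where they were high, so their p is no separate support.

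**Figure D3:**
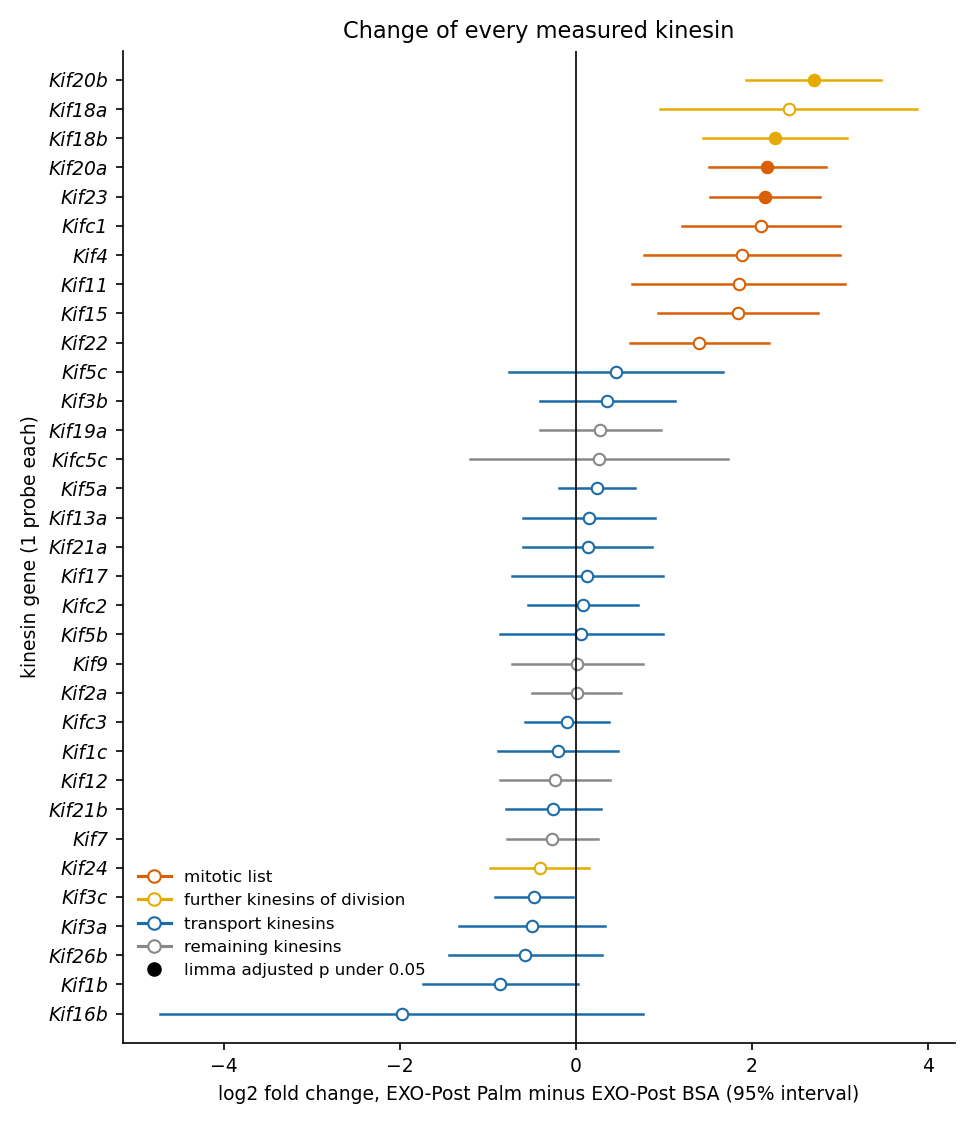
Change in log2 intensity, EXO-Post Palm minus EXO-Post BSA, with its 95% interval by limma, for the 33 kinesin genes kept, 1 probe each, ordered by size and coloured by class. Filled points passed a limma adjusted p of 0.05. The 10 genes at the top are kinesins of division with changes of 1.40 to 2.70, and the other 23 lie between -1.98 and 0.46.

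Kinesins of transport were described by the same measures. Of 19 listed, 16 were tested and none passed, higher or lower. Of all genes 0.561% passed in either direction and 0.0744% as lower. An unadjusted limma p under 0.05 was found in 1 of the 16, against 10.2% of all genes. Such counts are near or below the share over all genes. The median change was -0.02. Kif5b, the widely expressed heavy chain of conventional kinesin, which moves mitochondria and positions nuclei in muscle fibres, had log2 values of -2.50, -3.42, -2.90 and -4.10 with EXO-Post BSA and -2.59, -3.27 and -3.64 with EXO-Post Palm. Its probe was not well above background on EXO-Post BSA replicate 4. The arrays of both groups were interleaved, and the change of 0.06 had a 95% interval of -0.86 to 0.99. The heavy chains named for neurons, Kif5a and Kif5c, differed by 0.25 and 0.46 (limma adjusted p = 0.708 and 0.816). For Kif5c both slide 1 controls lay at 1.05 and 0.72 and the other controls at -1.03 and -1.05, with the EXO-Post Palm arrays between them at 0.30, 0.30 and 0.54.

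Kinesin-2 motors carry cargo in cilia and on endosomes. Kif3a had log2 values of 1.46, 1.76, 1.09 and 1.96 with EXO-Post BSA and 1.51, 1.46 and 0.21 with EXO-Post Palm. EXO-Post Palm replicate 3 alone stood below the controls, and the change was -0.50 (95% interval -1.33 to 0.33). A second probe of Kif3a gave 0.32, so its probes disagreed in sign. Kif3c, a partner of Kif3a, was the transport kinesin whose groups did not overlap. Its log2 values were -0.04, 0.03, -0.07 and -0.06 with EXO-Post BSA and -0.51, -0.73 and -0.28 with EXO-Post Palm. The controls were nearly equal and all 3 EXO-Post Palm arrays lay below them, as is so for 6.23% of all genes, and the change of -0.47 had a limma adjusted p of 0.469. Kif3b and Kif17 differed by 0.36 and 0.13.

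Kinesin-3 motors move vesicles and endosomes. Kif1b, which carries mitochondria and synaptic vesicle precursors, had log2 values of 2.61, 2.37, 1.83 and 2.06 with EXO-Post BSA and 2.31, 1.02 and 0.73 with EXO-Post Palm. EXO-Post Palm replicate 1 lay among the controls and the other 2 below them, and the change of -0.86 (95% interval -1.74 to 0.02) had a limma adjusted p of 0.511. A second Kif1b probe gave -0.43. Kif1c, a fast carrier of dense core vesicles and of mRNA, had log2 values of 2.67, 1.84, 2.49 and 1.66 with EXO-Post BSA and 1.79, 2.26 and 1.83 with EXO-Post Palm. Its groups overlapped fully. The change was -0.21 by this probe and 0.49 and 0.21 by 2 others, none of them past the threshold.

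Kif13a, which drives recycling endosomes, had log2 values of 1.03, 1.75, 0.50 and 1.52 with EXO-Post BSA and 1.68, 1.34 and 1.02 with EXO-Post Palm, a change of 0.15 (95% interval -0.60 to 0.90). Kif21a, a kinesin-4 that restrains microtubule growth at the cell cortex, had log2 values of -1.26, -1.12, -1.99 and -1.41 with EXO-Post BSA and -1.10, -1.96 and -0.88 with EXO-Post Palm, a change of 0.13 (95% interval -0.60 to 0.87). In neither gene were the groups apart. Kif16b, a motor of early endosomes, had log2 values of -0.79, -1.52, -0.71 and -0.84 with EXO-Post BSA and -1.32, -6.65 and -0.87 with EXO-Post Palm. EXO-Post Palm replicate 2 was far below the rest and not well above background. The change of -1.98 (adjusted p = 0.627) rested on that array and was -0.13 without it. Kif21b, Kif26b, Kifc2 and Kifc3 changed by -0.57 to 0.08, none past the threshold.

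The remaining kept kinesins were Kif7, Kif9 and Kif19a, motors of cilia, with Kif12, Kif2a and the pseudogene Kifc5c. Their changes ran from -0.27 in Kif7 to 0.28 in Kif19a, and the adjusted p was 0.738 or more in each. Kif2a, a tubulin-removing motor related to Kif2c, had a change of 0.01 (95% interval -0.50 to 0.52) by its brightest probe and of -0.21 and -0.58 by 2 others. Over the 22 kept kinesins outside both lists of division, none passed (0.561% of all genes) and the median change was 0.01. An unadjusted p under 0.05 was found in 1 of them, against 10.2% of all genes. These counts are also near or below the share over all genes. Over the 26 outside the 8 mitotic kinesins, 2 passed, Kif18b, which was kept only through EXO-Post Palm, and Kif20b, against 0.561% of all genes, and the median was 0.04. At the limit of the filter, Kif15 was kept with 2 controls and 3 EXO-Post Palm arrays well above background and Kif12 with 3 and 1, while Kif2c and Kif1a, with 2 and 2 by their better probes, were left out. The other names not kept were Kif13b, Kif14, Kif26a, Kif27, Kif2b, Kif4b (a pseudogene of Kif4 in RefSeq) and Kif6.

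Proteins that work with the mitotic kinesins were taken from a separate list. Of 24 partners, 22 were tested and 7 passed, all higher (0.486% of all genes), and the groups did not overlap, in that direction, in 17 (5.22% of all genes). The median change was 1.71, with a range of -0.31 to 2.64. Dlgap5, counted among the 17, was kept only through EXO-Post Palm, where it was high. The partners that rose were Ect2, the exchange factor that centralspindlin brings to the furrow (2.64, limma adjusted p = 0.0311), Aurka, the spindle pole kinase (2.40, 0.0495), Cenpe, itself a kinesin of the kinetochore whose gene name does not begin with Kif (2.39, 0.0108), Plk1, the kinase that docks on Kif20a and Prc1 (2.19, 0.0349), Tpx2, which activates Aurka and binds Kif11 (1.85, 0.0427), Prc1, the midzone bundler (1.84, 0.0436), and Tacc3, a spindle protein (1.80, 0.0355). Racgap1, the partner of Kif23 in centralspindlin, differed by 1.09 (adjusted p = 0.184), with no overlap of the groups. Passenger complex genes Birc5, Cdca8 and Incenp differed by 2.31, 1.50 and 1.36 (adjusted p = 0.0677, 0.152 and 0.172). The lowest of the list was Mapre1, which tracks microtubule plus ends in any cell (-0.31, adjusted p = 0.761).

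Of 20 tested partners of transport kinesins, such as the light chains Klc1 to Klc4 and the mitochondrial adaptors Trak1 and Rhot1, none passed (0.561% of all genes), 1 had an unadjusted p under 0.05 (10.2% of all genes), and the median change was -0.25. Counts of this size are near or below the share over all genes. The extremes were Fez1, an adaptor of kinesin-1 (0.70, adjusted p = 0.689), and Sync, an intermediate filament protein that was listed with them (-0.60, adjusted p = 0.506). Dynein and dynactin, the motor that runs the opposite way, had 28 tested genes with a median change of 0.05. None of these 28 passed or had an unadjusted p under 0.05, beside the same shares over all genes, and the extremes were Dctn4 (0.38, adjusted p = 0.72) and Bicd2 (-0.47, adjusted p = 0.578).

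**Figure D4:**
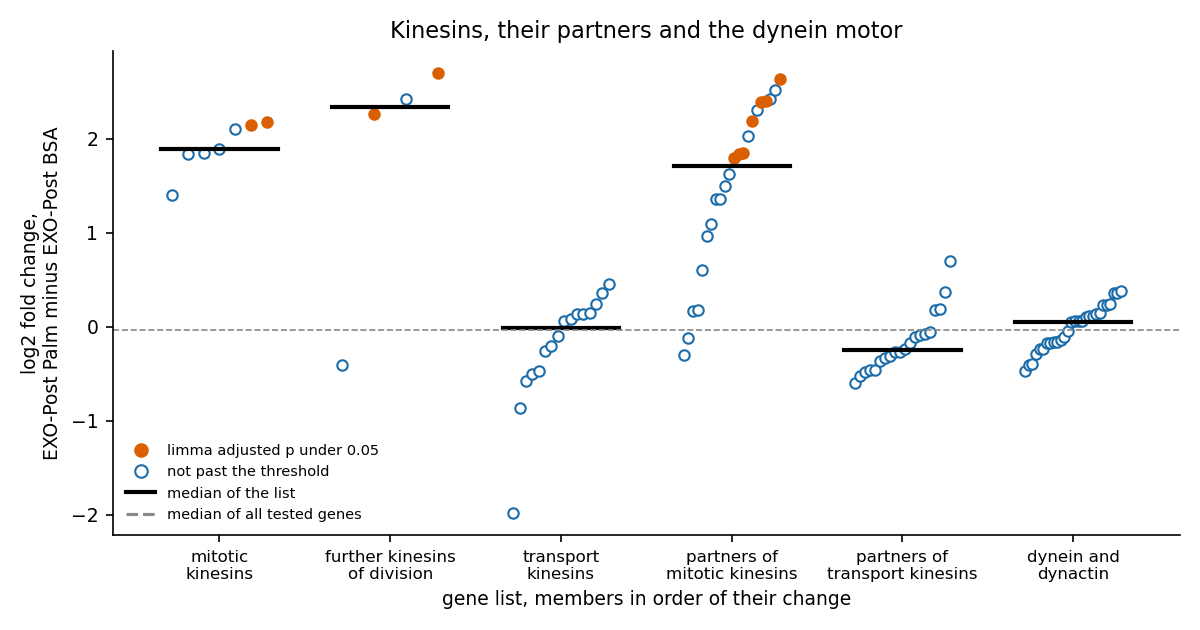
Change in log2 intensity, EXO-Post Palm minus EXO-Post BSA, for each tested gene of 6 lists, with the median of each list as a bar and that of all tested genes as a dashed line. Filled points passed a limma adjusted p of 0.05. The medians were 1.89, 2.34 and -0.02 for the mitotic, further division and transport kinesins and 1.71, -0.25 and 0.05 for the partners of both and for dynein and dynactin.

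Markers of the cells in the culture were set beside the kinesins. Among markers of dividing cells, Top2a and Mki67 rose (2.36 and 2.12, limma adjusted p = 0.0141 and 0.0436) and Pcna differed by 0.92 (adjusted p = 0.597). All 3 were well above background on every array. Over their values not flagged, the median difference from the mean of the controls was -0.45 to 0.26 on the controls. It was 1.40 to 2.71 on the EXO-Post Palm arrays. The 11 myotube markers had none past the threshold and a median change of -0.21. Their median difference from the mean of the controls was -0.09 to 0.12 on the controls and -0.31 to 0.03 on the EXO-Post Palm arrays. Of 5 tested myoblast markers none passed, and their median change was -0.04. Heyl, a Notch target, was the lowest (-1.06, adjusted p = 0.29) and Des the highest (0.50, adjusted p = 0.446). No fibroblast marker passed, and the 4 went both ways. Col1a1 was at -1.64 (adjusted p = 0.0701) and Col1a2 at -1.05 (0.428), while Dcn was at 0.34 (0.788) and Pdgfra at 0.29 (0.687). Of macrophage markers, Csf1r was well above background on 7 arrays and Emr1 on 6 (changes 0.45 and 0.58, neither past the threshold), and Ptprc on at most 2 and Cd68 on 1. Of endothelial markers, Pecam1 and Kdr were well above background on 7 arrays (changes -0.03 and -0.07, neither past the threshold) and Cdh5 on none. Whether the share of dividing cells differed between the cultures was not tested.

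**Figure D5:**
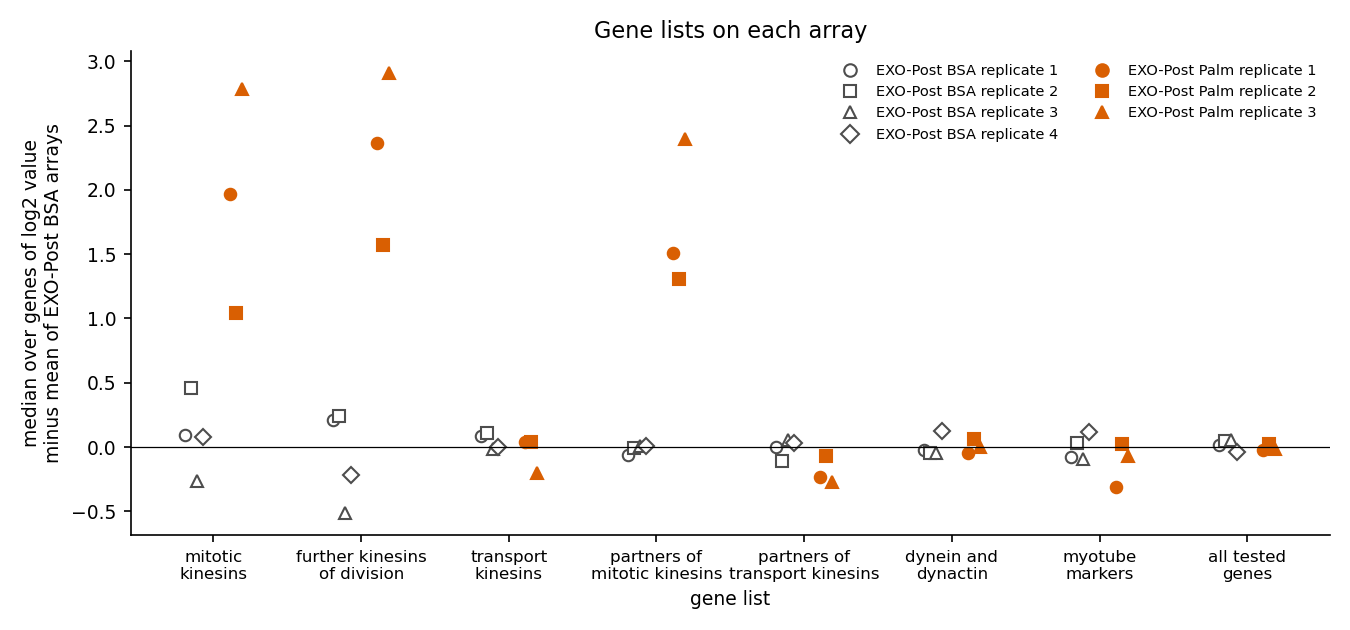
Median over the genes of each list of the log2 value minus the mean of the EXO-Post BSA arrays, with 1 symbol per array (open, EXO-Post BSA; filled, EXO-Post Palm). For the mitotic kinesins the EXO-Post Palm arrays lie at 1.97, 1.05 and 2.79 and the controls between -0.27 and 0.46, while for the transport kinesins every array lies between -0.20 and 0.11.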

How the data were processed

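RNA of C2C12 recipient cells was measured on 7 arrays. For each array the authors deposited the intensity of every spot as written by Agilent Feature Extraction (10.7.3.1, or 11.5.1.1 for EXO-Post BSA replicate 3, per the file headers; the labels name 9.1), background-subtracted but not normalised between arrays. The authors also deposited a table of log2 values with 1 distribution for all arrays, which served as an alternative. Its rows were matched to spots by order (rank correlation with the spot intensities of at least 0.994). Deposited quality flags, carried as other values per the file headers, marked probes well above background.

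Log2 was taken of the processed intensities, less that of the 75th percentile within the same array (549.4 to 1621.4). Control spots and spots flagged as uneven or as outliers were left out, and probes printed more than once were averaged. Gene names for EXO-Post BSA replicate 3 were joined by probe. A probe was tested if well above background on at least 3 arrays of 1 group (21589 probes). The comparison of the groups used limma 3.58.1 under R 4.3.3 (lmFit on group, eBayes, 2-sided, Benjamini-Hochberg over all tested probes, threshold 0.05). The brightest tested probe stood for a gene. Kinesins past the threshold, the 8 mitotic kinesins and Kif5b, Kif3a, Kif1b, Kif1c, Kif13a and Kif21a were given by array, and of other lists the genes past the threshold and the extremes were named. Racgap1, Birc5, Cdca8, Incenp and the other genes named beyond this were chosen after their values were seen.

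The fit was tested on simulated data. Alternatives covered background, normalisation, filter, flags, slide, replicate number, variance model, test, and each array left out. Background alternatives used the median spot signal for all arrays because the mean was not given for EXO-Post BSA replicate 3. The paper names limma without settings. Members, gene lists and motifs were chosen with earlier results of these data known. Figures were drawn with matplotlib.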

Additional observations from a re-analysis of the deposited data

Results flagged for a closer look

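In Kif16b, 1 of the 4 EXO-Post BSA arrays lay far from the others of its group. Replicate 2 had a log2 value of -1.52, and the others were between -0.84 and -0.71. Among the EXO-Post BSA arrays of 33 kinesin genes this was the 1 such case, and groups of 3, such as EXO-Post Palm, were not examined this way, although EXO-Post Palm replicate 2 lay at -6.65 for the same gene against -1.32 and -0.87. Chance alone sets an array apart in about 5% of groups.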

How the results depend on the processing

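The 10 kinesins of division with non-overlapping groups kept their direction in each alternative in which they were fitted, while the number past the threshold moved. The direction was in large part fixed in advance. Groups that do not overlap keep their sign when 1 array is left out. Changes of filter, test or trended variance leave the estimate as it is. With no filter on dim probes, with the methods' t-test after Benjamini-Hochberg adjustment, and with a replicate block, 0 mitotic and 0 other kinesins passed, and these settings called 0 probes of any kind. Without adjustment of p, 7 and 4 passed, and 2169 probes of all. With normexp background, with local background subtracted and with quantile normalisation, 1 other kinesin passed, as it did when a probe had to be well above background on all 7 arrays. The median of the mitotic kinesins was 1.07 and 0.98 with normexp and with subtraction. With 1 array left out in turn, 0 to 4 mitotic and 0 to 2 other kinesins passed, and the medians were 1.58 to 2.29 and -0.158 to 0.0777.

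Same-numbered arrays deviated together at correlations of 0.12, -0.15 and -0.15 and none was closest to its own number. No pairing by number was seen. So few correlations cannot exclude it, and only the arrays of replicate 1 shared a slide. The replicate block, which cannot use EXO-Post BSA replicate 4, gave a median of -0.16 for the other kinesins and -0.23 for Kif5b. Kif1c changed sign to 0.12 with normexp and with subtraction and to 0.14 in the authors' values, and Kif13a to -0.0477 with slide as a block. With 1 array left out, Kif5b ran from -0.23 to 0.31, Kif13a from -0.0847 to 0.33 and Kif21a from -0.0836 to 0.46. None of these passed in any fit, and the cause of the shifts was not tested. Kif11, Kif15, Kif18a, Kif18b, Kif23 and Kif4 were not well above background on every control, and their changes were 0.59 to 1.07 with local background subtracted.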
